A study of Mus musculus with 12 samples.

Results

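The genes described here are 10 mouse genes of the p53 response and of apoptosis, namely the tumour suppressor gene Trp53 and the genes Cdkn1a, Mdm2, Ccng1, Trp53inp1, Ddb2, Casp8, Bax, Bbc3 and Gadd45b. They were taken by name, each from the probe set assigned to exactly that symbol. Of the 10 genes, 7 had such a probe set, 1 each, among 19938 genes with a single symbol on the array. Trp53, Cdkn1a and Bax had none under this rule and were not analysed here. Of the 7 measured genes, 6 were among the 9969 genes left by a filter on variance, and Mdm2 was not: its interquartile range over the 12 arrays was 0.0987 on the log2 scale, against a limit of 0.137. The nearest gene above that limit among them was Ccng1 at 0.145.

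The study asked what the long non-coding RNA Dali does in neural differentiation. It used N2A cells, a mouse neuroblastoma line that puts out neurites when treated with retinoic acid (RA), and measured RNA on 12 single-colour Affymetrix Mouse Gene 1.0 ST arrays. The 4 groups of 3 arrays were Dali knockdown (KD) cells after RA, control cells after RA, proliferating KD cells and proliferating control cells. KD cells stably carried a short hairpin RNA vector against Dali, and control cells stably carried a non-targeting (scrambled) vector. Both kinds of cell had been co-transfected with a hygromycin resistance plasmid and selected as drug-resistant clones in 200 μg/ml hygromycin B. Proliferating cells grew in medium with 10% fetal bovine serum. RA cells spent 72 h in medium with 20 μM all-trans RA and 2% serum, so that RA and lower serum cannot be told apart. The study's methods call the 3 arrays of a group biological replicates, while the labels do not say whether they are separate clones or cultures. The study describes 1 stable control line, so a difference between that line and the KD cells and an effect of the knockdown cannot be told apart, and p-values here speak of the spread among these samples only, which may be technical.

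No probe set was assigned to Dali, so the knockdown was not checked on these arrays. Arrays of 1 group correlated at 0.9924 to 0.9961 across all 35556 probe sets, and arrays of different groups at 0.9859 to 0.9926. All 12 measured markers of sympathoadrenal neuroblasts, the lineage of this tumour line, lay above the median gene on the arrays, compared with 0 of 6 glial markers, 0 of 7 immune and endothelial markers and 3 of 7 fibroblast markers. The mean log2 level of the 12 neuroblast markers was 9.60 to 9.71 in KD cells after RA, 9.70 to 9.71 in control cells after RA, 9.99 to 10.03 in proliferating KD cells and 9.85 to 9.90 in proliferating control cells. Their part in the differences below was not tested.

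p53 is a transcription factor that is kept scarce by the ubiquitin ligase Mdm2 and accumulates after DNA damage or other stress. It then turns on genes that halt the cell cycle, repair DNA or start cell death, and also Mdm2 itself, which closes a feedback loop. Apoptosis is carried out by caspases and starts either at mitochondria, under the BCL2 family, or at death receptors of the cell surface, which activate caspase-8. In human neuroblastoma, CASP8 is well known as a gene that is often silenced by methylation of its DNA.

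p53 binds DNA at pairs of short half-sites, and the bases just upstream of the genes' start sites are shown here for their half-sites and for their CG pairs, the letters at which DNA is methylated. Upstream windows of 250 bases were held by the RefSeq table (GRCm38.p6) for 5 of the 7 measured genes: Casp8, Bbc3, Gadd45b, Mdm2 and Ccng1. The p53 half-site consensus, which reads the same way on both strands, was matched once in the window of Mdm2 and once in that of Ccng1, and in none of the windows of Casp8, Gadd45b and Bbc3. Of 32851 windows of the same length, 2341 (7.13%) held a match. A match is a description of the letters and not evidence of binding. The 2 matches follow with 10 bases on each side and the half-site in capitals. That of Mdm2 lies 186 to 177 bases before the start (chr10:117710925-117710954, minus strand) and that of Ccng1 185 to 176 bases before it (chr11:40755452-40755481, minus strand).
Mdm2: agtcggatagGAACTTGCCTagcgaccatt
Ccng1: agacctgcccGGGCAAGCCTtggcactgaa

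The windows of Casp8 and Gadd45b, the 2 genes in the table that changed, are given in full with CG in capitals (chr1:58802252-58802501 and chr10:80929841-80930090, both plus strand). That of Casp8 held 5 CG pairs and that of Gadd45b 22, where the median over all windows was 6. Mdm2 had 29, Ccng1 11 and the 3 windows of Bbc3 23, 27 and 37. The window of Gadd45b also held the TATA box letters TATAAA, starting 46 bases before the start site, which 12.4% of all windows hold on either strand, and overlapped no half-site. Methylation was not measured on these arrays.
Casp8: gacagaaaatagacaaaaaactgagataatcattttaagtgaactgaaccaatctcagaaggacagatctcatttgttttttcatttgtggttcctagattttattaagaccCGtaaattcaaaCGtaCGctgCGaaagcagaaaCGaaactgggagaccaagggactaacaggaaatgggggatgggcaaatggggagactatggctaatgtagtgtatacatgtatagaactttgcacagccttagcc
Gadd45b: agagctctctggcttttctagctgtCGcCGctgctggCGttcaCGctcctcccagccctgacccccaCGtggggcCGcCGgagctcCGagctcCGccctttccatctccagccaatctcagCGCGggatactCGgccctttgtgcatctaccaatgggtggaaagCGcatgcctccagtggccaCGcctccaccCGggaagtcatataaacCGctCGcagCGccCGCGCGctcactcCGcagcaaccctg

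Casp8 was the gene of the set that changed most. It encodes caspase-8, the initiator caspase that death receptors activate. In proliferating cells its log2 expression was 8.90, 8.80 and 8.81 on the 3 KD arrays, against 8.08, 8.03 and 7.85 on the 3 control arrays. After RA it was 8.22, 8.20 and 8.11 in KD cells, against 7.37, 7.68 and 7.45 in control cells. Every KD array lay above every control array of the same state, with a gap of 0.73 between the nearest arrays in proliferating cells and 0.42 after RA. The difference was 0.85 ± 0.08 on the log2 scale (SE; 1.80-fold, 95% interval 1.59 to 2.04) in proliferating cells, with an adjusted p of 2.5e-05 in limma. After RA it was 0.67 ± 0.08 (1.59-fold, 95% interval 1.41 to 1.80, adjusted p = 0.000106 in limma). A gene was called, and is said to have changed, where its adjusted p was under 0.05 and its difference at least 1.3-fold. These are amounts in RNA pooled from many cells, in which fewer cells of a type and less RNA per cell cannot be told apart.

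Casp8 also fell with RA in both kinds of cell. The RA response was -0.66 ± 0.08 (SE) on the log2 scale in KD cells (adjusted p = 6.65e-05 in limma), with a gap of 0.59 between the nearest arrays. In control cells it was -0.49 ± 0.08 (adjusted p = 0.000687), with a gap of 0.17. KD cells after RA, at a mean of 8.17 ± 0.058 (SD, n = 3), stood near proliferating control cells at 7.99 ± 0.12, and the lowest of those KD arrays (8.11) lay just above the highest of those control arrays (8.08). The interaction, the response in KD cells less the response in control cells, was -0.18 ± 0.12 (95% interval -0.43 to 0.08, adjusted p = 0.462), so a difference between the responses was not detected.

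**Figure D1:**
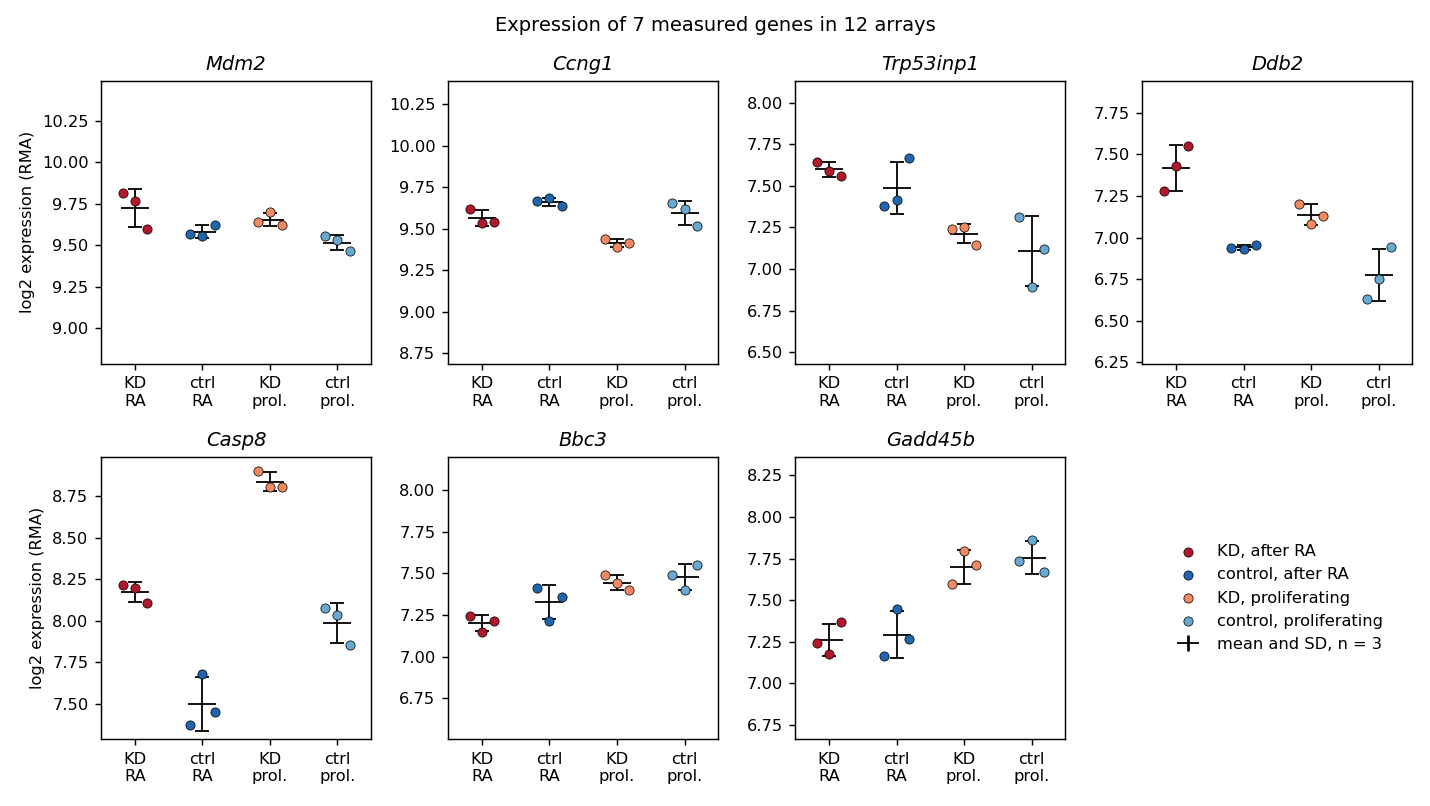
Log2 expression (vertical axis, the same span of 1.7 for every gene) of the 7 measured genes on each array, by group: KD and control (ctrl) cells after RA, then KD and control cells while proliferating (prol.). Bars are the mean and SD (n = 3). Casp8 was 8.80 to 8.90 in proliferating KD cells and 7.85 to 8.08 in proliferating controls, Ddb2 was 7.28 to 7.55 in KD cells after RA and 6.93 to 6.96 in control cells after RA, and Gadd45b was lower after RA in both kinds of cell.

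Ddb2 was higher in KD cells as well. Its product is a damage-binding protein that recognises ultraviolet lesions for nucleotide excision repair, and in human cells it is a p53 target. After RA it stood at 7.28, 7.43 and 7.55 in KD cells, against 6.94, 6.93 and 6.96 in control cells. The control arrays were close together and all KD arrays lay above them. The difference was 0.48 ± 0.08 (SE) on the log2 scale, or 1.39-fold (95% interval 1.23 to 1.58), with an adjusted p of 0.000934 in limma.

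In proliferating cells Ddb2 was 7.20, 7.08 and 7.13 on the KD arrays, against 6.63, 6.75 and 6.94 on the control arrays. The groups did not overlap, and the third control array lay nearest to the KD arrays. The difference of 0.36 ± 0.08 had an adjusted p of 0.00526 in limma but was 1.29-fold, just under the 1.3-fold that a call required here. Without the third control array it was 0.45, and without the second KD array 0.39, and both would be calls. The RA response of Ddb2 was 0.28 ± 0.08 in KD cells (1.22-fold, adjusted p = 0.018) and 0.17 ± 0.08 in control cells (1.12-fold, adjusted p = 0.151). Neither was a call, and the responses were not shown to differ (0.12 ± 0.12, adjusted p = 0.671).

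Mdm2 and Ccng1 differed by less than 1.3-fold between KD and control cells. Mdm2, the ubiquitin ligase that limits p53, was 9.64, 9.70 and 9.62 in proliferating KD cells, against 9.56, 9.53 and 9.46 in proliferating control cells. After RA it was 9.81, 9.76 and 9.60 in KD cells, against 9.57, 9.55 and 9.62 in control cells. The groups stood apart by 0.067 in proliferating cells and overlapped after RA. The differences were 0.14 ± 0.06 in both states (1.10-fold), with adjusted p-values of 0.119 and 0.0974 in limma without the filter. The 95% intervals ran from 1.01-fold to 1.20-fold in both. With RA, Mdm2 differed by 0.07 ± 0.06 in KD cells and in control cells (adjusted p = 0.461 and 0.518).

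Ccng1 encodes cyclin G1, which works with a phosphatase subunit to activate Mdm2. It was 9.44, 9.39 and 9.41 in proliferating KD cells, against 9.65, 9.62 and 9.52 in proliferating control cells. After RA it was 9.62, 9.54 and 9.54 in KD cells, against 9.67, 9.68 and 9.64 in control cells. All KD arrays were below all control arrays in both states, by a gap of 0.078 in proliferating cells and of 0.018 after RA. The differences were -0.18 ± 0.05 (adjusted p = 0.011 in limma) and -0.10 ± 0.05 (adjusted p = 0.128) on the log2 scale, and both lay under 1.3-fold. Ccng1 thus lay on the opposite side of 0 from Mdm2 and Ddb2. Its RA response was 0.15 ± 0.05 in KD cells (adjusted p = 0.0265, under 1.3-fold) and 0.07 ± 0.05 in control cells (adjusted p = 0.33).

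Trp53inp1, a p53-induced nuclear protein with roles in cell death and autophagy, changed with RA and was not called between KD and control cells. In KD cells it was 7.65, 7.59 and 7.56 after RA, against 7.24, 7.25 and 7.15 while proliferating. In control cells it was 7.38, 7.42 and 7.67 after RA, against 7.31, 6.89 and 7.12 while proliferating. The RA and proliferating arrays did not overlap in either kind of cell, and the control arrays were more spread out, with an SD of 0.21 in proliferating controls, against 0.059 in proliferating KD cells.

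RA raised Trp53inp1 by 0.39 ± 0.10 (SE) in KD cells (1.31-fold, adjusted p = 0.0088 in limma) and by 0.38 ± 0.10 in control cells (adjusted p = 0.0105). Both lay at the 1.3-fold limit. The call in KD cells was lost without the third proliferating KD array (0.35) and without the first KD array after RA (0.36), and also when arrays were centred on their medians (0.36) or quantile normalisation was repeated (0.36). That in control cells was lost without the second proliferating array (0.27) and without the third array after RA (0.29). The KD differences were 0.11 ± 0.10 in proliferating cells (adjusted p = 0.451) and 0.11 ± 0.10 after RA (adjusted p = 0.424), and that in proliferating cells was -0.0016 without the second control array.

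Bbc3 encodes PUMA, a BH3-only protein that p53 induces to trigger death through mitochondria. After RA it was 7.24, 7.15 and 7.21 in KD cells and 7.41, 7.21 and 7.36 in control cells. While proliferating it was 7.49, 7.44 and 7.40 in KD cells and 7.49, 7.40 and 7.55 in control cells. In KD cells the RA arrays all lay below the proliferating arrays, and in control cells they overlapped. The RA response was -0.24 ± 0.06 in KD cells (adjusted p = 0.00807 in limma), under the 1.3-fold limit, and -0.15 ± 0.06 in control cells (adjusted p = 0.0744). KD and control arrays overlapped in both states, with differences of -0.04 ± 0.06 and -0.13 ± 0.06 (adjusted p = 0.684 and 0.132).

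Gadd45b, a stress-induced gene of the growth arrest and DNA damage family that acts in p38 and JNK signalling and has a role in DNA demethylation in neurons, was the other gene that RA lowered. In KD cells it was 7.24, 7.18 and 7.37 after RA, against 7.60, 7.80 and 7.71 while proliferating. In control cells it was 7.16, 7.45 and 7.27 after RA, against 7.73, 7.86 and 7.67 while proliferating. All RA arrays lay below all proliferating arrays of the same cells, with gaps of 0.23 and 0.22.

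The RA response of Gadd45b was -0.44 ± 0.08 (SE) in KD cells (adjusted p = 0.00147 in limma) and -0.46 ± 0.08 in control cells (adjusted p = 0.00113), and the difference between them was 0.02 ± 0.12 (95% interval -0.23 to 0.28, adjusted p = 0.944). Between KD and control cells it differed by -0.05 ± 0.08 in proliferating cells (95% interval of the ratio 0.849 to 1.09) and by -0.03 ± 0.08 after RA (0.863 to 1.11), with adjusted p-values of 0.664 and 0.819 and overlapping arrays in both states.

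**Figure D2:**
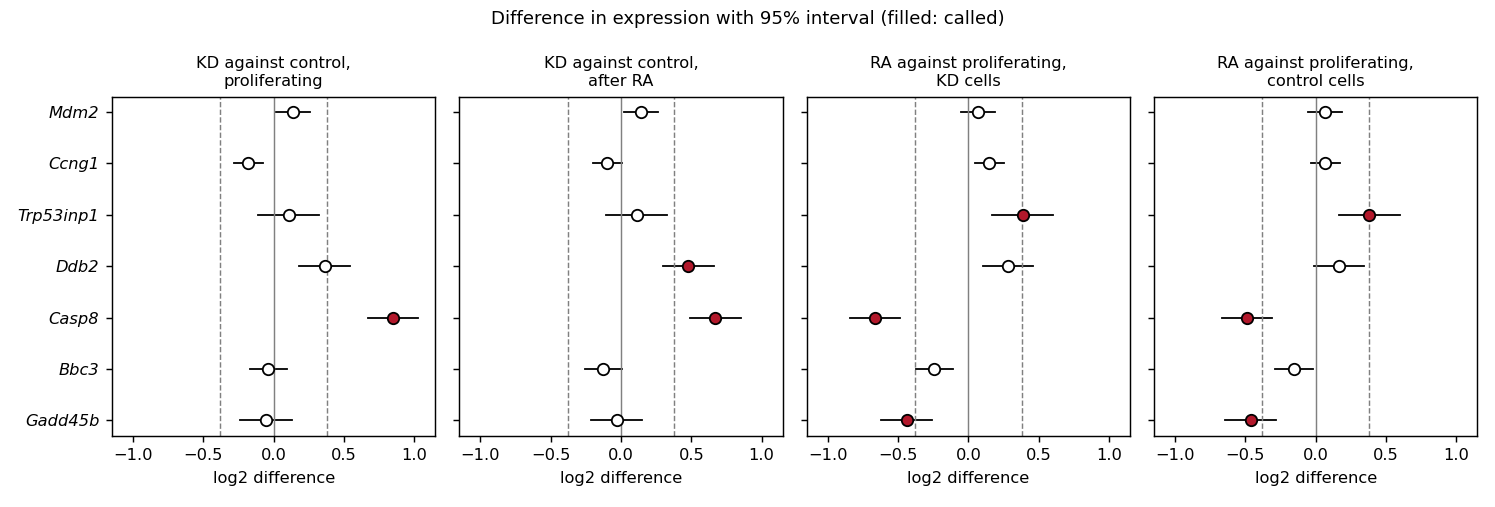
Log2 difference (horizontal axis) of the 7 measured genes in the 4 comparisons, with 95% intervals; positive values mean higher in KD cells in the first 2 panels and higher after RA in the last 2. Filled points passed both the adjusted p and the fold limit, which dashed lines mark at 0.38 on either side of 0. Casp8 was 0.85 and 0.67 in the KD panels, and -0.66 and -0.49 in the RA panels.

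Counted together, 1 of the 6 tested genes was called in proliferating KD cells (Casp8, higher), where 6.96% of all tested genes were called, 3.96% as genes higher in KD cells. After RA 2 of 6 were called (Casp8 and Ddb2, both higher), against 7.71% of all tested genes, 3.71% as genes higher in KD cells. Of the called genes 48.1% were higher, and 33.9% were when arrays were centred on their medians. For the RA response, 3 of 6 were called in KD cells and in control cells, Trp53inp1 higher and Casp8 and Gadd45b lower. All tested genes were called at 9.94% in KD cells (5.37% higher, 4.57% lower) and at 9.34% in control cells (5.58% higher, 3.76% lower). These comparisons share arrays, so their counts are not independent. The interaction of KD and RA was called for 0 of 6, where 1.24% of all tested genes were called in limma, and 0 of 7 had an unadjusted p under 0.05, the lowest being 0.151 for Casp8.

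Arrays that did not overlap between groups were common in the whole series, at 50.3% and 44.5% of tested genes between KD and control cells in proliferating cells and after RA, and at 45.8% and 44.8% between RA and proliferating arrays in KD and control cells. Among the 6 tested genes the counts were 3, 3, 6 and 3 in the same order. The median log2 difference over the 7 measured genes was 0.11 between KD and control cells in both states, and 0.07 with RA in both kinds of cell. The medians over all genes were -0.01, -0.03, -0.01 and 0.0026. The counts of called genes given before, where above 0, each rest on the 1 to 3 genes named with them.

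Each gene was also set beside its genomic neighbours, the 25 annotated genes on either side of it in gene order. The 50 neighbours of Casp8 had a median KD difference of 0.03 in proliferating cells and of 0.0046 after RA, with a range of -0.70 to 0.53 and of -0.54 to 0.25. None of the 50 differed as much as Casp8 in either state. For Ddb2 the medians were -0.02 and -0.01, and 0 of 50 neighbours differed as much.

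The gene next to Casp8 on one side is Cflar, named here for its position after its values were seen, which encodes a catalytically inactive relative of caspase-8 that restrains it. It was 6.63, 6.63 and 6.63 in proliferating KD cells, against 6.41, 6.28 and 6.29 in proliferating control cells, a difference of 0.30 ± 0.07 (SE; adjusted p = 0.00451 in limma) that was under 1.3-fold. After RA Cflar differed by 0.21 ± 0.07 (adjusted p = 0.0288 in limma), also under 1.3-fold. Trak2, the next gene on the other side, differed the opposite way, by -0.12 in proliferating cells and by -0.28 after RA. The neighbours of Gadd45b leaned one way: 44 of 50 were lower in proliferating KD cells and 46 of 50 after RA, with medians of -0.09 and -0.17, while Gadd45b itself differed by -0.05 and -0.03.

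**Figure D3:**
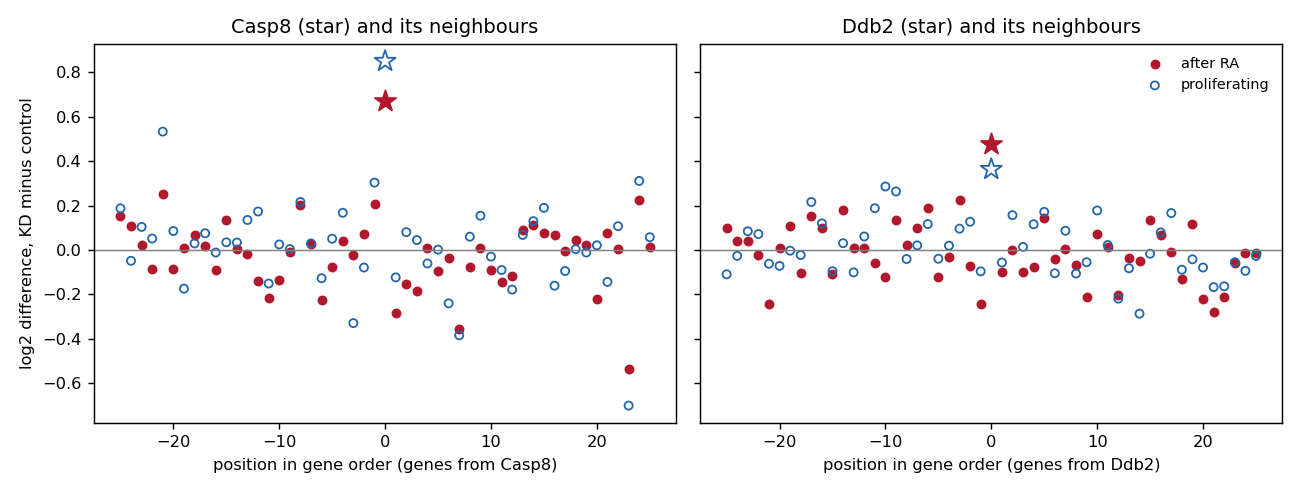
Log2 difference of KD minus control cells (vertical axis) for Casp8 and Ddb2 (stars) and their 25 neighbours on each side, by position in gene order (horizontal axis, number of genes away); filled points are after RA and open points are proliferating cells. The stars of Casp8 lie at 0.67 after RA and 0.85 in proliferating cells, and those of Ddb2 at 0.48 and 0.36.

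Other genes of these pathways were taken as whole lists. Among 26 tested genes of a list of p53 targets and their relatives, 1 rose and 2 fell in proliferating KD cells, where 6.96% of all tested genes were called and 3.96% were higher. The total of 3 was 6 without the second KD array and 1 without the third. Ckap2, a spindle protein, rose by 0.38 ± 0.08 (log2, SE), at the fold limit. It was not called without KD array 2 (0.34) or 3 (0.36), or without control array 2 (0.38) or 3 (0.35). Trp53i11 fell by 0.49 ± 0.05, and the immediate early gene Ier3 by 0.41 ± 0.07, the last not called without control array 1 (-0.37) or KD array 3 (-0.35). After RA 3 rose and 4 fell, where 7.71% of all tested genes were called and 3.71% were higher. Those that rose were Ddb2, Polk (0.45 ± 0.06) and Pidd1 (0.38 ± 0.06, at the fold limit). Those that fell were the detoxifying epoxide hydrolase gene Ephx1 (-0.74 ± 0.06), the stress transcription factor gene Atf3 (-0.62 ± 0.06), Trp53inp2, listed as a relative of Trp53inp1, which acts in autophagy (-0.57 ± 0.05), and Trp53i11 (-0.48 ± 0.05). In limma the adjusted p was 0.00304 or lower for each of these calls. In proliferating cells Ephx1 differed by -0.36 ± 0.06, Atf3 by -0.33 ± 0.06 and Trp53inp2 by -0.15 ± 0.05, all under the fold limit (adjusted p = 0.00103, 0.00127 and 0.0204). Polk differed by 0.26 ± 0.06 and Pidd1 by 0.0034 ± 0.06 in proliferating cells, neither called (adjusted p = 0.00584 and 0.972 in limma). After RA Ckap2 differed by 0.23 ± 0.08 and Ier3 by -0.20 ± 0.07, also under the fold limit (adjusted p = 0.0352 and 0.0434). The median over the 39 measured genes of the list was -0.04 in proliferating cells and -0.08 after RA, against -0.01 and -0.03 over all genes.

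Of 13 tested regulators and relatives of p53, 3 rose in proliferating KD cells and 0 fell, against 6.96% of all tested genes called and 3.96% higher. They were the checkpoint kinase gene Chek1 (0.55 ± 0.10), the deacetylase gene Sirt1, whose product acts on p53 (0.43 ± 0.05), and Atm, the kinase that signals DNA breaks (0.41 ± 0.05). After RA Sirt1 alone was called, at 0.43 ± 0.05, against 7.71% of all tested genes, and 3 genes were called without the third KD array after RA. Under the fold limit after RA were Atm (0.35 ± 0.05, adjusted p = 0.000201 in limma) and Chek1 (0.33 ± 0.10, adjusted p = 0.0185). Their interactions were not called (adjusted p = 0.688 and 0.441). Sirt1 was 8.51, 8.60 and 8.52 in proliferating KD cells, against 8.17, 8.09 and 8.08 in proliferating control cells, and 8.98, 8.95 and 8.98 in KD cells after RA, against 8.63, 8.47 and 8.51 in control cells after RA. It was higher on every KD array in each state. Adjusted p-values in limma were at most 0.00114 for the calls of Chek1, Sirt1 and Atm.

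In the death receptor pathway, 7 genes were tested. For every count of this paragraph the shares over all tested genes are the same. They are 6.96% called in proliferating cells (3.96% higher) and 7.71% after RA (3.71% higher). Casp8 and the deubiquitinase gene Cyld rose in both states, Cyld by 0.46 ± 0.06 in proliferating cells and by 0.47 ± 0.06 after RA. Tnfrsf1a, which encodes a receptor of tumour necrosis factor, fell by 0.48 ± 0.07 in proliferating cells. Its arrays read 9.24, 9.20 and 9.02 in proliferating KD cells, against 9.64, 9.63 and 9.62 in proliferating control cells. After RA the arrays of Tnfrsf1a overlapped, at 9.18, 9.38 and 9.33 in KD cells, against 9.36, 9.41 and 9.31 in control cells. Among 10 tested caspases, apoptosome genes and their inhibitors, Birc3, an inhibitor of apoptosis, rose beside Casp8 in proliferating cells (0.58 ± 0.06), and Casp8 alone was called after RA. Of the 5 tested BCL2 family genes, 7 genes of the Gadd45 family and its partners and 6 cyclin-dependent kinase inhibitor genes, 0 were called in either state. In the Gadd45 list 1 gene was called after RA when arrays were centred on their medians, when quantile normalisation was repeated or without the first control array after RA. Gadd45g, a stress gene of that family, named after its values were seen, differed by -0.35 ± 0.07 after RA (adjusted p = 0.00309 in limma), under the fold limit. Of 13 tested nucleotide excision repair genes, the endonuclease gene Ercc5 rose in proliferating KD cells (0.40 ± 0.04) and Ddb2 after RA. This count of 1 of 13 in each state is near the share over all tested genes. The count in proliferating cells was 3 without KD array 1 or control array 2, and 2 without any other single array of that state. After RA it was 2 without KD array 2 or control array 1. Adjusted p-values in limma were at most 0.000292 for the calls of Cyld, Tnfrsf1a, Birc3 and Ercc5. After RA Birc3 differed by 0.23 ± 0.06 and Ercc5 by 0.28 ± 0.04 (adjusted p = 0.0092 and 0.000467), both under the fold limit.

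With RA, 2 of 7 tested genes of the Gadd45 list rose and 1 fell, Gadd45b, in each kind of cell, where 5.37% of all tested genes were higher in KD cells and 5.58% in control cells. Those that rose were Cdk1, the mitotic kinase, by 0.75 ± 0.04 in KD cells and 0.78 ± 0.04 in control cells, and the replication clamp gene Pcna, by 0.64 ± 0.05 and 0.67 ± 0.05. Among repair genes, the single-strand binding protein gene Rpa2 rose by 0.74 ± 0.07 in both, and the DNA ligase gene Lig1 by 0.59 ± 0.06 and 0.55 ± 0.06. Rpa1 rose by 0.42 ± 0.07 and 0.41 ± 0.07. It was not called in KD cells without the first proliferating array (0.35), or in control cells without the first RA array (0.37). The centrin gene Cetn2 fell in KD cells (-0.43 ± 0.07). In control cells it differed by -0.32 ± 0.07 (adjusted p = 0.00406 in limma), under the fold limit, and its interaction was not called (adjusted p = 0.615). In all, 3 of 13 tested repair genes were called higher with RA in each kind of cell. In KD cells 1 was called lower, and in control cells 0. The shares of all tested genes were 5.37% higher and 4.57% lower in KD cells, and 5.58% higher and 3.76% lower in control cells.

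Of 13 tested regulators and relatives of p53, 4 were called with RA in each kind of cell. The shares over all tested genes were 9.94% in KD cells and 9.34% in control cells. The checkpoint kinase genes Chek1 and Chek2 rose by 0.63 ± 0.10 and 0.66 ± 0.06 in KD cells. In control cells they rose by 0.85 ± 0.10 and 0.53 ± 0.06. Sirt1 rose by 0.42 ± 0.05 in both, and was just under the limit in control cells without the first RA array (0.38). Hipk2, which encodes a kinase of p53, rose in control cells (0.43 ± 0.05), and the acetyltransferase gene Kat5 fell in KD cells (-0.42 ± 0.07, not called without the second proliferating KD array, at -0.37, or the third after RA, at -0.36). Two-sided limma tests gave adjusted p-values of at most 0.000846 for the calls of these genes. Hipk2 differed by 0.14 ± 0.05 in KD cells and Kat5 by -0.24 ± 0.07 in control cells, neither called (adjusted p = 0.0506 and 0.0255). Their interactions were not called (adjusted p = 0.057 and 0.407). Of 6 tested cyclin-dependent kinase inhibitor genes, 2 were called in KD cells and 1 in control cells, beside the same shares. Cdkn2c rose in both (0.47 ± 0.10 in KD cells and 0.71 ± 0.10 in control cells). Cdkn1b, which encodes p27, rose in KD cells (0.56 ± 0.08, but 0.34, under the fold limit, when its probe sets were averaged). In control cells Cdkn1b differed by 0.20 ± 0.08 and was not called, and neither was its interaction (adjusted p = 0.111 in limma).

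On the side of apoptosis, Birc5, which encodes survivin, an inhibitor of apoptosis that also serves in mitosis, rose with RA by 0.66 ± 0.07 in KD cells and by 0.67 ± 0.07 in control cells. Birc3 fell by 0.44 ± 0.06 in KD cells. Casp2 rose by 0.41 ± 0.05 in control cells, and Bok, of the BCL2 family, fell by 0.47 ± 0.06 in KD cells. None of these 3 was called in the other kind of cell. There Birc3 differed by -0.09 ± 0.06, Casp2 by 0.35 ± 0.05 and Bok by -0.21 ± 0.06 (adjusted p = 0.316, 0.000144 and 0.0154 in limma). Of 10 tested caspases, apoptosome genes and their inhibitors, 3 were called in each kind of cell. Of 5 tested BCL2 family genes, 1 was called in KD cells and 0 in control cells. Casp8 was the 1 gene called of 7 tested in the death receptor pathway in each kind of cell. Of all tested genes 9.94% were called in KD cells and 9.34% in control cells. Under the fold limit, Tnfrsf1a differed by -0.27 ± 0.07 in control cells (adjusted p = 0.00745 in limma). Cyld differed by -0.20 ± 0.06 in KD cells and -0.21 ± 0.06 in control cells (adjusted p = 0.0315 and 0.0237), also under it. Whether genes called in 1 kind of cell differed between the 2 kinds is given by the interaction. It was not called for Birc5, Birc3, Casp2, Bok, Casp8 or Cyld, and that of Tnfrsf1a is given below.

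Among 26 tested p53 targets and their relatives, RA raised 3 and lowered 2 in KD cells. In control cells it raised 4 and lowered 2. Trp53inp1 was among those raised in both. By the same limits, RA raised 5.37% of all tested genes and lowered 4.57% of them in KD cells. The matching shares for control cells were 5.58% raised and 3.76% lowered. In KD cells the total of called genes was 3 without the third proliferating array, without the first array after RA or with centred arrays, and it was 3 without the third array after RA in control cells. In KD cells Pidd1, which encodes a p53-induced protein with a death domain, rose by 0.57 ± 0.06, and in control cells it differed by 0.19 ± 0.06 and was not called. The antiproliferative gene Btg2 fell in both, by 0.58 ± 0.06 in KD cells and by 0.40 ± 0.06 in control cells, and its interaction was not called (-0.18 ± 0.08, adjusted p = 0.27 in limma). Atf3 fell by 0.51 ± 0.06 in KD cells, and in control cells it differed by -0.23 ± 0.06, under the fold limit. Ephx1 rose by 0.38 ± 0.06 in KD cells, at the fold limit, and by 0.76 ± 0.06 in control cells. In control cells Ckap2 rose by 0.50 ± 0.08 and Trp53inp2 by 0.41 ± 0.05, and Ier3 fell by 0.41 ± 0.07. In KD cells these genes differed by 0.35 ± 0.08, -0.01 ± 0.05 and -0.20 ± 0.07 in the same order, and none was called. The interaction was not called for Atf3, Ckap2 or Ier3 (adjusted p = 0.112, 0.545 and 0.301 in limma), and that of Trp53inp2 is given below. The call of Ephx1 in KD cells was lost without the third proliferating KD array (0.32), or the first (0.36) or second (0.36) after RA, and when arrays were centred (0.36). That of Ier3 was lost without the first proliferating control array (-0.37) or the third after RA (-0.36).

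**Figure D4:**
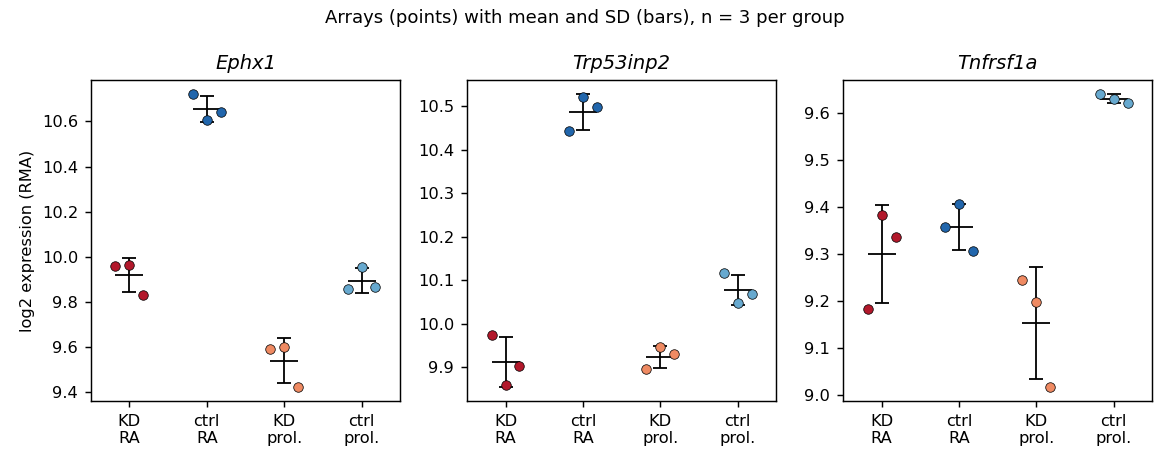
Log2 expression (vertical axis, scaled separately per gene) on each array, with mean and SD (n = 3), of Ephx1, Trp53inp2 and Tnfrsf1a, by group: KD and control (ctrl) cells after RA, then KD and control cells while proliferating (prol.). Ephx1 was 9.83 to 9.96 in KD cells after RA and 10.60 to 10.72 in control cells after RA.

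Genes whose pattern over the 12 arrays was most like that of a called gene were found by Pearson's r against 19937 other genes. They are given as a description, since arrays of 1 group share their condition. For Casp8 they were Snord16a (r = 0.984), Cnga3 (0.980) and Arfgef3 (0.978). For Ddb2 they were Phlda2 (0.962), Donson (0.947) and Cyp39a1 (0.936). Trp53inp1 was nearest to Akap11 (0.967), Ercc6l (0.935) and Casp8ap2 (0.926), and Gadd45b to Spock2 (0.966), Stat2 (0.963) and Tns1 (0.960).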

How the data were processed

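Total RNA of 12 N2A samples was hybridised by the authors to single-colour arrays. The deposited log2 values, 1 for each probe set on each array, were made by the authors by RMA background correction, quantile normalisation and gene-level summary in R. Both RMA and limma stand in the submitters' processing notes, without versions, and no scan batches were known. The arrays thereby share a scale, which hides any change in the amount of RNA per cell. Array medians lay between 7.146 and 7.209, and precision is limited by how many arrays there are.

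Of 35556 probe sets, the platform annotation gave 1 symbol to 21789, several to 1621 and left 12146 unnamed here. Identifiers of 21698 matched RefSeq (GRCm38.p6), 91 did not, and 0 symbols changed. For 999 of 19938 genes with several probe sets the one with the largest interquartile range was kept. The less variable 50% of genes were dropped, which left 9969. A model of the 4 group means on all 12 arrays was fitted with limma 3.58.1 in R 4.3.3, with no replicate block, followed by contrasts and empirical Bayes moderation. Calls needed an adjusted p (Benjamini-Hochberg, over all tested genes) under 0.05 and a 1.3-fold difference or more. Tests are two-sided, and errors of log2 differences are limma's standard errors (SE). Adjusted p-values of Mdm2 come from the fit without the filter.

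The 10 genes and the 8 pathway lists were chosen with earlier results of these data known. Named beside them were, from each list, up to 4 called genes per comparison with the largest log2 change, and the 3 genes most like each called gene. Polk and Pidd1 were also named for KD against control cells after RA, and those calls were not followed over the alternatives. The fit was tested on simulated data. Alternatives covered the filter, the probe set rule, centring, quantile normalisation, fitting single comparisons, a replicate block, array weights and a variance trend, and leaving out each array.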

Additional observations from a re-analysis of the deposited data

Results flagged for a closer look

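Among the tested genes of the fixed lists, 3 were called for the interaction term in limma, the response in KD cells less the response in control cells. The list of p53 targets and their relatives gave 2 of 26 tested genes, Ephx1 and Trp53inp2, the latter listed as a relative. Tnfrsf1a was 1 of 7 tested death receptor genes. Of all tested genes 1.24% were called for the interaction. The calls of Ephx1 and Tnfrsf1a were lost in most fits that left out 1 array, as given below. None of the 7 genes described first was called for the interaction. Pidd1 had an adjusted p of 0.039 and an interaction of 0.38 ± 0.08, which fell short of the 1.3-fold limit in the fourth decimal.

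For Ephx1 the interaction was -0.38 ± 0.09 (log2, SE, adjusted p = 0.048). Its arrays read 9.96, 9.96 and 9.83 in KD cells after RA and 9.59, 9.60 and 9.42 in proliferating KD cells, against 10.72, 10.60 and 10.64 in control cells after RA and 9.86, 9.96 and 9.87 in proliferating control cells. For Trp53inp2 it was -0.42 ± 0.06 (adjusted p = 0.0106), with 9.97, 9.86 and 9.90 in KD cells after RA and 9.90, 9.95 and 9.93 in proliferating KD cells, against 10.44 to 10.52 in control cells after RA and 10.12, 10.05 and 10.07 in proliferating control cells. For Tnfrsf1a it was 0.42 ± 0.09 (adjusted p = 0.0448), and the proliferating control arrays, at 9.62 to 9.64, stood highest.

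The calls of Ephx1 and Tnfrsf1a were each lost in 11 of the 12 fits that left out 1 array, in which the adjusted p in limma reached 0.123 for Ephx1 and 0.101 for Tnfrsf1a while the values stayed between -0.44 and -0.34 and between 0.35 and 0.48. They were also lost without the variance filter (adjusted p = 0.0631 and 0.0592). The call of Trp53inp2 held under all alternatives run, with values of -0.45 to -0.39 when 1 array was left out.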

How the results depend on the processing

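Casp8 was called in all 4 comparisons, Gadd45b in both RA comparisons and Ddb2 between KD and control cells after RA under every alternative run and without any single array. Casp8 stayed at 0.78 to 0.89 in proliferating KD cells and at 0.61 to 0.76 after RA when 1 array was left out, and Ddb2 at 0.41 to 0.55 after RA. The count of called genes among the 6 tested ranged from 1 to 2 in proliferating KD cells (Ddb2 was added, as given above), was 2 after RA throughout, and ranged from 2 to 3 for RA in both kinds of cell, where Trp53inp1 was the gene lost. The adjusted p of Ccng1 in proliferating KD cells ranged from 0.00193 to 0.0601 over the alternatives.

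The count of all genes called for the interaction, 124, ranged from 41 to 143 when 1 array was left out. Counts of the other 4 comparisons stayed within 669 to 734, 755 to 842, 950 to 1023 and 927 to 958. Centring arrays on their medians moved the share of interaction calls that were positive to 24.7%, against 39.5%. For 12 of the 40 counts over lists an alternative moved the count by more than 1.5 times. Among them were p53 targets and their relatives (1 to 6) and repair genes (1 to 3) in proliferating KD cells. Of 54 calls of named list genes, 43 held under all alternatives.

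Values near 0 that were not called turned their sign. For the interaction, Mdm2 was -0.0337 after centring. Trp53inp1 was -0.0331 after centring, -0.0419 after quantile normalisation was repeated and -0.0162 with array weights, and Gadd45b was -0.0138, -0.0077 and -0.0148 under the same alternatives. With 1 array left out, these interactions ranged from -0.0395 to 0.0676, from -0.0974 to 0.112 and from -0.0409 to 0.101. The KD difference of Trp53inp1 in proliferating cells ranged from -0.0016 to 0.208, and that of Gadd45b after RA from -0.0952 to 0.0465. The causes were not tested.

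Deviations of same-numbered samples from their group means correlated weakly, at -0.0696 to 0.191 over the comparisons. Between KD and control cells, 3 of 3 samples correlated best with their own number in proliferating cells and 2 of 3 after RA. Between RA and proliferating samples the counts were 0 of 3 in KD cells and 1 of 3 in control cells. A replicate block gave 696, 773, 990, 934 and 94 called genes, against 694, 769, 991, 931 and 124 without it, and left the calls among the 7 measured genes as they were. Fits of single comparisons give no interaction. With 3 arrays against 3, an exact permutation test of 1 gene cannot go below a p of 0.1.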
